A study of Mus musculus with 5 samples.

Results

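Genes of tissue mineralization were followed through the cells of the mouse temporomandibular joint (TMJ) disc, the fibrocartilage plate on which the lower jaw moves against the skull. They were taken by symbol from the 27998 genes in the files: Ibsp, Spp1, Bglap, Bglap2, Alpl, Mgp, Enpp1, Ank, Runx2 and Sp7, 10 in all, and each was found in the files. Ibsp was chosen with its rise from 3 d to 78 w already known, so that this difference is given as a description.

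The discs came from C57BL/6 mice labelled WT, and each of 5 conditions is 1 single-cell library made with the 10x Genomics 3′ kit. Untreated discs were taken at 3 days (3 d), 3 weeks (3 w), 16 weeks (16 w) and 78 weeks (78 w) of age by their labels. The name of the 78 w file, however, carries a younger age, in months, than its label. The injured discs were pinched with needles at the anterior band at 5 weeks and collected 2 weeks later, at 7 weeks, and the nearest uninjured ages are 3 w and 16 w. The labels give WT for the injured mice as well, whereas the methods of the study describe this injury in Myh11-CreER+; Tm fl/- mice, so that a difference in genotype is possible. By the same methods, the Myh11-CreER+ mice were given tamoxifen at 5 weeks and their Cre line was FVB-Tg, so tamoxifen and strain may differ too. Pups of both sexes went into 1 suspension at 3 d, while only males were used at the 3 later ages, so that sex and age cannot be told apart at 3 d. The sex of the mice in the injured library and the number of animals in each library were not given in the sources used here. With 1 library per condition there are no replicates, no test was made, and every interval below is a 95% interval of counting error only.

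Mineral forms in collagen matrix where phosphate is freed and the mineral inhibitor pyrophosphate is removed. Bone sialoprotein (Ibsp) binds and nucleates mineral, osteopontin (Spp1) binds mineral and slows crystal growth, and osteocalcin (Bglap, Bglap2) is the mineral-binding protein of osteoblasts. Alpl encodes the alkaline phosphatase that splits pyrophosphate, Enpp1 makes pyrophosphate from ATP, and Ank takes part in its export. Matrix Gla protein (Mgp) is a vitamin K-dependent inhibitor of calcification, and Runx2 and Sp7 (osterix) are the transcription factors that osteoblasts need.

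Ibsp and Spp1 lie on the plus strand of mouse chromosome 5 (GRCm38, chr5:104299171-104311469 and chr5:104435118-104441050), 123648 bases apart, with Mepe between them. Bglap (chr3:88383501-88384464) and Bglap2 (chr3:88377736-88378699) are neighbours on the minus strand of chromosome 3 with 4801 bases between them. They and Bglap3 are near-identical copies, so that reads may be lost or split among them, and their separate counts are uncertain. Of the genes 2-fold higher at 78 w than at 16 w, Alpl and Bglap2 are not shown here. For the other 3, Ibsp, Spp1 and Bglap, the bases just before the start are shown. They are from RefSeq (GRCm38.p6), 5′ to 3′ along the gene, without any base inside an annotated exon of the gene, and capitals mark the RUNX-type motif TGTGGT, read here on the opposite strand as ACCACA.
Ibsp, chr5:104299037-104299170, plus strand: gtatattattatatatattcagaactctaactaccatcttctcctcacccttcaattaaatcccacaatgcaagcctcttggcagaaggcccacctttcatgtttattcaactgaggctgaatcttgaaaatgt
Spp1, chr5:104434861-104435110, plus strand: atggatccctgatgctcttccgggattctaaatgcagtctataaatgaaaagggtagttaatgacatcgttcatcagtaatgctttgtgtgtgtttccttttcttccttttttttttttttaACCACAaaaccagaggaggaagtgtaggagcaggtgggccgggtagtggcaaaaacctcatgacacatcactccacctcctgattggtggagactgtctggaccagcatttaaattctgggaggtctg
Bglap, chr3:88384467-88384716, minus strand: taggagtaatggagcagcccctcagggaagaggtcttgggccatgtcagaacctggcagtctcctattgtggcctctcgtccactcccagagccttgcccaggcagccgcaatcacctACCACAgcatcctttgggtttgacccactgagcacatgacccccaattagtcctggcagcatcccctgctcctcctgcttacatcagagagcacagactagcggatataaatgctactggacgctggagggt
The motif, searched on both strands over 250 bases before each start, was found for Spp1, Bglap, Enpp1 and Runx2, which are 4 of the 7 genes with a promoter window, and for 14.2% of 27025 genes. The match of Runx2 lies inside the gene as GENCODE annotates it, and the 80 bases before that annotation held 0 matches. Ibsp, Alpl and Ank held none, and Bglap2, Mgp and Sp7 had no window. For Ibsp, only 134 of the 250 bases searched lie before the gene as GENCODE annotates it.

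The deposited libraries held 8467 to 15169 barcodes, each with at least 500 unique molecular identifiers (UMIs, 1 per captured transcript). A limit on the mitochondrial share left 8467 to 14959 cells. The median depth was 7721 UMIs per cell at 3 d, 12496 at 3 w, 9234 at 16 w, 9466 at 78 w and 3299 in the injured library, which is the shallowest. Between 19 and 39 barcodes were shared by any pair of libraries. Clusters were formed without the 10 genes and named from marker lists. Clusters 1, 2 and 3 were stromal-like, with 6, 7 and 6 of 7 fibroblast markers, and held 10608, 7898, 7627, 8308 and 6710 cells in the order 3 d, 3 w, 16 w, 78 w and injured, the order used throughout. Endothelial-like, macrophage-like, mural-like and synovial lining-like cells each had 6 of 6 markers. Cluster 1, led by Cytl1 and Chad, held 1730 of the stromal cells at 3 d and 5152, 5120, 5918 and 4200 in the later libraries, while cluster 2 (Kera, Tnmd) and cluster 3 (Pi16, Clec3b) held most of those at 3 d. Levels are CPM, a gene's UMIs relative to all UMIs of the same cells, where 10000 CPM is 1%, without a correction for length because 3′ UMIs count transcripts whatever their length, in which fewer expressing cells and less transcript per cell cannot be told apart.

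Of the 9 genes with enough counts, 8 were at least 2-fold higher at 78 w than at 3 d in stromal cells, and none was 2-fold lower. Enough counts means at least 100 UMIs in the library with the higher level. Over 12901 genes the shares were 14.3% higher and 21.0% lower, but this contrast was used in the choice of Ibsp, so nothing is read from the comparison. The median log2 ratio was 2.78 over the 9 genes and -0.17 over all genes. Enpp1, with a ratio of 1.96, lay just outside the 2-fold limit, and Bglap2, at 3.50, was the lowest ratio inside it.

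**Figure D1:**
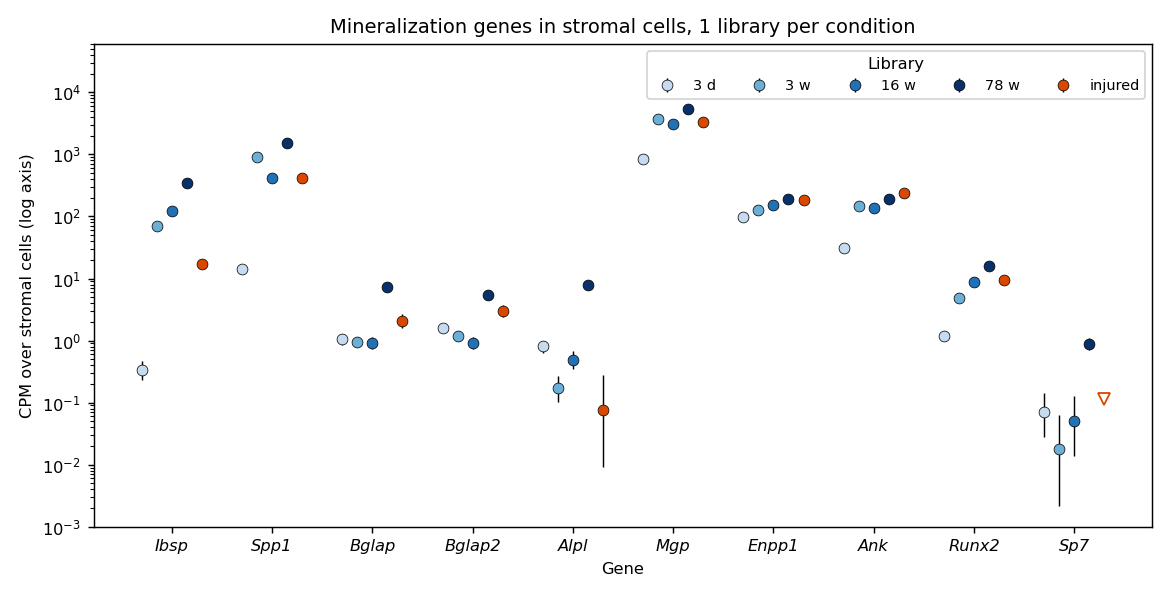
Level of the 10 genes over stromal cells in each library (CPM, log axis), with exact Poisson 95% intervals, which for most points are smaller than the symbol. The open triangle marks Sp7 in the injured library, with 0 UMIs, at the level that 3 counts would give (0.114 CPM). All but Ank, which is highest in the injured library, have their highest point at 78 w, and Mgp spans 845 to 5454 CPM.

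Of the genes with a UMI in every library, Ibsp showed the widest range of levels. Ibsp stood at 0.331 CPM at 3 d (33 UMIs, interval 0.228 to 0.465), 69.6 CPM at 3 w (68.1 to 71.2), 124 CPM at 16 w (122 to 127), 351 CPM at 78 w (347 to 355) and 17.1 CPM in the injured library (15.6 to 18.8). It was thus close to absent in newborn stroma, higher at each later age, and lower after injury than at either 3 w or 16 w, with no overlap of the intervals. Spp1 was 14.5 CPM at 3 d, 898 at 3 w, 415 at 16 w, 1541 at 78 w and 415 in the injured library. It did not follow Ibsp at 16 w, where it lay below the 3 w level. The ratio of 78 w to 16 w was 2.83 for Ibsp (2.76 to 2.89) and 3.72 for Spp1 (3.67 to 3.76).

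The osteocalcin genes were counted at about 1 CPM in stromal cells until 16 w. Bglap was 1.05 CPM at 3 d, 0.962 at 3 w, 0.923 at 16 w, 7.23 at 78 w and 2.09 in the injured library. Bglap2 was 1.58, 1.17, 0.923, 5.51 and 3.00 CPM. At 3 d Bglap2 was also counted at 1.43 CPM in endothelial cells, on 11 UMIs, and at 7.17 CPM in macrophages. Its stromal level at 3 d, and so its ratios to 3 d, cannot be told from background. Bglap was lower in endothelial cells at 3 d, at 0.130 CPM on 1 UMI. Few cells carried these counts. At 3 d, 1 stromal cell held 71 of 105 Bglap UMIs and 68 of 157 Bglap2 UMIs, and at 78 w 1 cell held 180 of 650 and 144 of 495. Without the highest cell of each library, Bglap was 0.341 CPM at 3 d and 5.23 CPM at 78 w, and its 78 w to 3 d ratio became 15.3 in place of 6.86. Between 3 w and 3 d the Bglap ratio became 2.69 in place of 0.913 without those cells, which turns the direction, and the Bglap2 ratio 1.15 in place of 0.741.

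Alpl, the phosphatase that removes pyrophosphate, was scarce in stromal cells. It was counted with 80 UMIs at 3 d, 19 at 3 w, 39 at 16 w, 706 at 78 w and 2 in the injured library, or 0.803, 0.169, 0.493, 7.86 and 0.0759 CPM. The 78 w level was 15.9 times that at 16 w (11.5 to 22.6). Over all retained cells, to which endothelial cells add, the ratio was 6.25.

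Mgp, Enpp1 and Ank, which hold mineral back, were counted at 31.1 CPM or more in every library. Mgp, the most abundant of the 10, was 845 CPM at 3 d, 3739 at 3 w, 3032 at 16 w, 5454 at 78 w and 3310 in the injured library. Enpp1 was 97.0, 126, 154, 190 and 184 CPM, and its ratio of highest to lowest age stayed under 2. Ank was 31.1 CPM at 3 d, then 145, 136 and 189 CPM, and was highest in the injured library at 240 CPM (234 to 246). Both stood above Alpl in every library.

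The osteoblast transcription factors were low throughout. Runx2 was 1.19 CPM at 3 d, 4.87 at 3 w, 8.84 at 16 w, 16.0 at 78 w (15.1 to 16.8) and 9.53 in the injured library, so that each age stood above the one before. Sp7 gave 7, 2, 4, 79 and 0 UMIs, and 0 of 26350476 UMIs in the injured library allows up to 0.114 CPM. With 79 UMIs Sp7 was below the limit for the 2-fold call, and its ratio of 78 w to 16 w was 17.4 (6.53 to 65.4).

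Between neighbouring ages, more of the genes differed by 2-fold in the first and last steps than in the middle one. The first step uses the 3 d library and the last the 78 w library, which the choice of Ibsp also used. Nothing is therefore read from the shares over all genes in these steps. From 3 d to 3 w, 5 of 8 genes were at least 2-fold higher (16.5% of all genes) and 0 were 2-fold lower (18.8%). They were Ibsp (210-fold, interval 150 to 306), Spp1 (62.0-fold), Ank (4.65-fold), Mgp (4.42-fold) and Runx2 (4.08-fold). The 3 d level of Ibsp in stromal cells cannot be told from that in endothelial cells (0.389 CPM on 3 UMIs). The size of its ratio is therefore uncertain beyond the interval. From 3 w to 16 w 0 of 8 were 2-fold higher (5.08% of all genes), and Spp1 was 2-fold lower, at 0.462 of its 3 w level (5.80% lower), though at 0.549 with equal weight for each cell. From 16 w to 78 w 5 of 9 were 2-fold higher, namely Ibsp, Spp1, Bglap, Bglap2 and Alpl, where the share over all 11892 genes was 2.05%, and 0 were 2-fold lower (1.27%). The Bglap ratio was 7.84 (6.15 to 10.1) and the Bglap2 ratio 5.97 (4.66 to 7.74). Mgp, Runx2, Ank and Enpp1 had ratios of 1.80, 1.81, 1.39 and 1.23 in this step.

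In the injured library, Ibsp was 0.246 of its 3 w level (0.223 to 0.270) and 0.138 of its 16 w level (0.125 to 0.152). Spp1 was 0.462 of the 3 w level but 1.00 of the 16 w level (0.979 to 1.02). These were the 2 of 6 genes that were 2-fold lower than at 3 w (17.3% of all genes) and, for Ibsp, the 1 of 6 that was 2-fold lower than at 16 w (14.2%), and 0 were 2-fold higher (4.82% and 5.67%). Ank was 1.66 times the 3 w and 1.76 times the 16 w level, and Mgp 0.885 and 1.09 times. Bglap and Bglap2 were 2.17 and 2.57 times the 3 w level on 55 and 79 UMIs, too few for the call. With edgeR's TMM scaling Spp1 was 0.524 and Runx2 2.22 times the 3 w level, which ends the call of Spp1 and makes that of Runx2, and Mgp was 1.00 times. The median log2 ratio of all genes was itself -0.37 against 3 w and -0.31 against 16 w. Depth and age differ along with injury here, and sex, genotype, strain and tamoxifen may, and their part was not tested.

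Shares of cells gave a flatter picture of Ibsp with age than levels did. After each cell was thinned to 1000 UMIs, 0.0567% of stromal cells had an Ibsp UMI at 3 d, 4.25% at 3 w, 4.32% at 16 w, 5.33% at 78 w (4.86 to 5.84) and 1.13% in the injured library (0.882 to 1.42). Without thinning the shares were 0.217%, 19.5%, 14.0%, 16.1% and 3.64%. Endothelial cells, which should lack the gene, gave 0% to 0.770% thinned, at median depths of 1904 to 5748 UMIs where stromal cells had 3546 to 13215. Macrophages gave up to 2.86%, on 105 cells at 16 w. At 3 d 0 of 888 endothelial cells had an Ibsp UMI, with an upper limit of 0.415%. This limit lies above the 3 d stromal share, so that so few cells cannot tell that share from background. Spp1 was in 0.936%, 27.6%, 12.9%, 24.4% and 18.9% of thinned stromal cells, and Mgp in 45.5%, 72.3%, 59.1%, 70.6% and 75.3%. Ank was in 2.92% of cells at 3 d and 18.3% in the injured library, and Runx2 was in 0.123% at 3 d and 1.45% at 78 w.

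**Figure D2:**
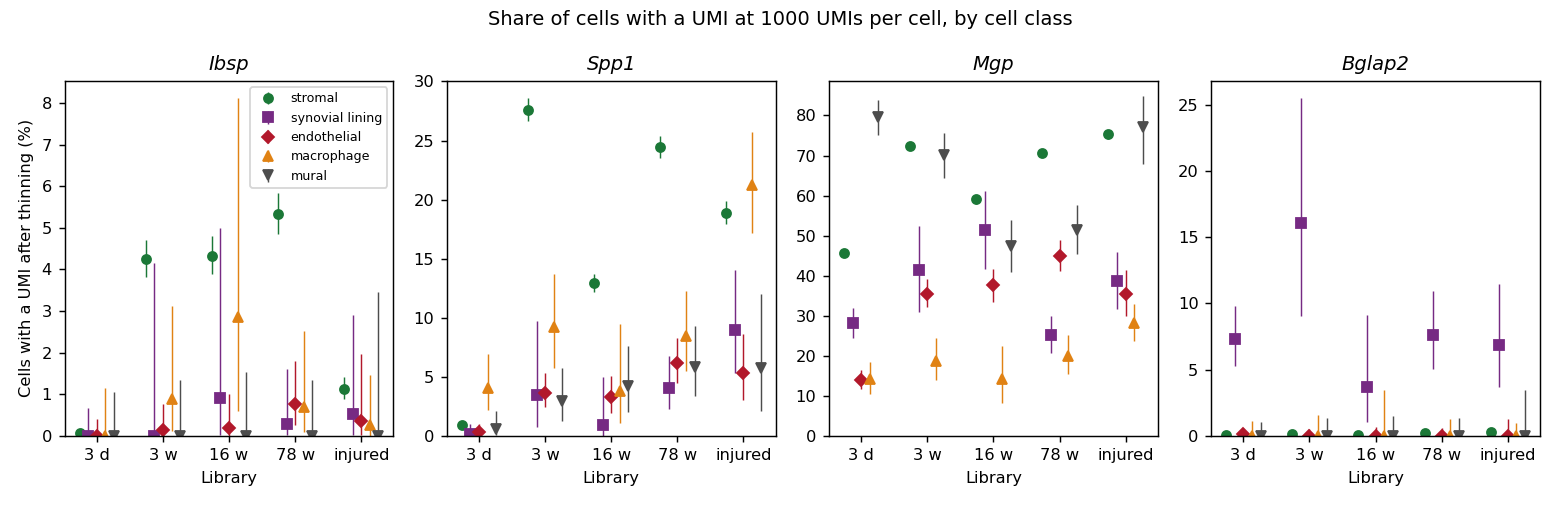
Share of cells with a UMI of Ibsp, Spp1, Mgp or Bglap2 after thinning to 1000 UMIs per cell, for 5 cell classes in the 5 libraries, with Clopper-Pearson 95% intervals. From 3 w on the Ibsp share is highest in stromal cells, though its interval overlaps those of lining cells at 3 w, of lining cells and macrophages at 16 w, and of every other class in the injured library, whereas Bglap2 is highest in synovial lining cells in every library.

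A larger share of the Ibsp UMIs lay in the highest cells at each later age from 3 w on, although the share of cells with any Ibsp UMI was no lower at 78 w than at 16 w. The 1% of stromal cells with the most Ibsp held 36.6% of its UMIs at 3 w, 50.5% at 16 w and 74.0% at 78 w, against 3.34% to 4.42% of all UMIs for the 1% of deepest cells. The cells that held 50% of the Ibsp UMIs were 151 cells at 3 w, 75 cells at 16 w and 25 cells at 78 w. The highest cell had 104, 329 and 1304 Ibsp UMIs in these libraries. Without the top 1%, Ibsp was 45.1 CPM at 3 w, 62.4 at 16 w and 92.8 at 78 w, so that the ratio of 78 w to 16 w went from 2.83 to 1.49, below the 2-fold limit. Spp1 was less concentrated, with 31.7% of UMIs in the top 1% at 78 w, and its ratio of 78 w to 16 w was 3.83 without them. For Mgp, Enpp1 and Ank the top 1% held 6.92% to 16.7% from 3 w on.

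**Figure D3:**
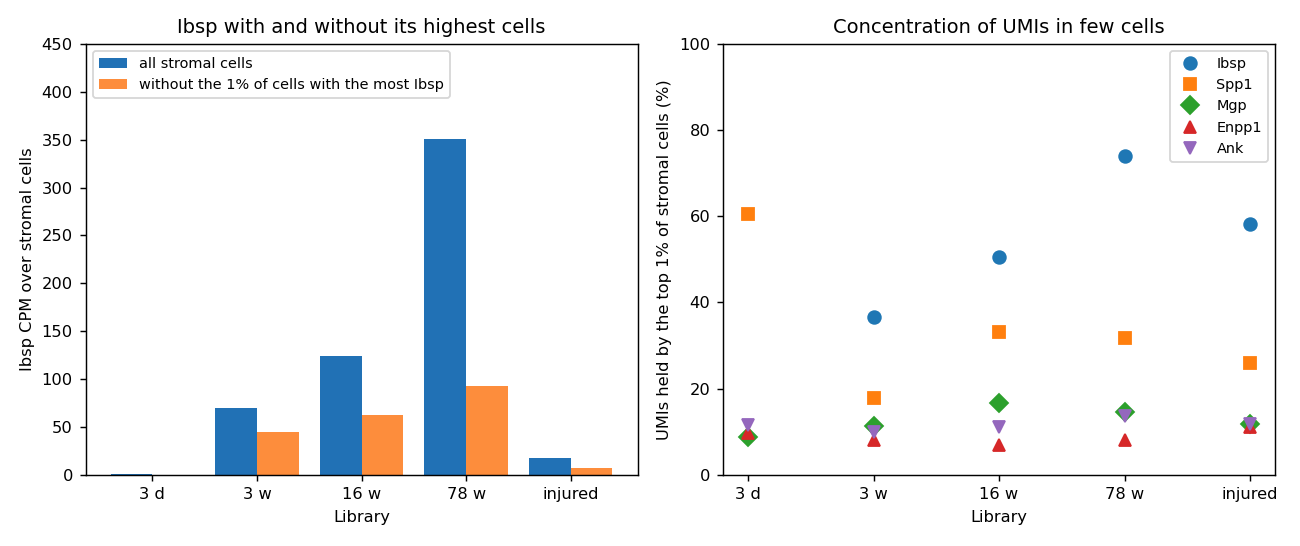
Left, Ibsp level over all stromal cells and without the 1% of cells with the most Ibsp (CPM). Right, the share of the UMIs of 5 genes held by the top 1% of stromal cells. The 78 w bar falls from 351 to 92.8 CPM, and Ibsp is the most concentrated of the 5 genes from 3 w on.

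The 83 stromal cells with the most Ibsp at 78 w, each with at least 67 Ibsp UMIs, also carried other genes of mineralizing tissue. Spp1 was seen in 82 of them, Alpl in 42, Runx2 in 37, Bglap in 32, Bglap2 in 28 and Sp7 in 21. Among the other 8225 stromal cells the shares were 51.0% for Spp1, 0.888% for Alpl, 13.4% for Runx2, 0.961% for Bglap and 0.499% for Sp7. These 83 cells were deeper, at a median of 17782 UMIs against 9752, but CPM, which allows for depth, differed too. It was 264 against 2.80 for Alpl, 293 against 1.61 for Bglap, 15.6 against 0.590 for Sp7 and 45.5 against 15.4 for Runx2. Of the genes that hold mineral back, Mgp was lower, with 3851 CPM in the 83 cells and 5486 CPM in the rest, while Enpp1 was 366 against 187 CPM and Ank 345 against 186 CPM. Spp1, which slows crystal growth, was 14185 against 1292.5 CPM.

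Several cartilage genes were higher in the same 83 cells, but Sox9, the cartilage transcription factor, was at 1.07 times the level of the rest. Col2a1, the fibrillar collagen of hyaline cartilage, was in 54 of them, the proteoglycan Acan in 79, Chad in 82 and Col10a1, the collagen of hypertrophic chondrocytes, in 25. Osteomodulin (Omd), a proteoglycan of mineralized matrix, was in 75 of them at 1366 CPM, against 32.8 CPM in the rest. Of late osteoblast and osteocyte genes, Mepe was in 17 and Dmp1 in 4, while Phex, Ifitm5 and Sost were in 0, which limits the cells with a UMI and not those that express the gene, since low transcripts are often missed in a cell. Of the 83 cells, 77 were in cluster 1 and 6 in cluster 2.

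In the corresponding top 1% of the younger libraries, Alpl, Bglap and Sp7 were seen in fewer cells. The cut there was at least 19 Ibsp UMIs at 3 w and 31 at 16 w, and the median depths were 22129 and 15253 UMIs. Among 79 cells at 3 w, Alpl was in 1, Bglap in 0 and Sp7 in 0, and among 76 cells at 16 w Alpl was in 3, Bglap in 6 and Sp7 in 0. Spp1 was in 72 and 52 of them. Col2a1 was in 16 and 26. At 16 w Acan was in 38, Omd in 58, Runx2 in 18, Mepe in 5 and Col10a1 in 1 of the 76 cells. These too were fewer than among the 83 cells at 78 w. Chad, Dmp1 and Ifitm5 were not rarer at 16 w. Chad was in 76 of 76 cells at 13547 CPM, against 8689 CPM in the 83 cells at 78 w, Dmp1 was in 4 and Ifitm5 in 2. Among the 67 such cells of the injured library, where 2 Ibsp UMIs were enough to be among them, Alpl, Bglap and Sp7 were in 0. Thinned cells gave a like picture at 78 w, where 61.9% of 441 cells with Ibsp also had Spp1 against 22.3% of the others, 5.67% had Alpl against 0.0894%, and 19.3% had Col2a1 against 2.13%. Mgp was in 60.8% of cells with Ibsp and 71.1% of those without.

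**Figure D4:**
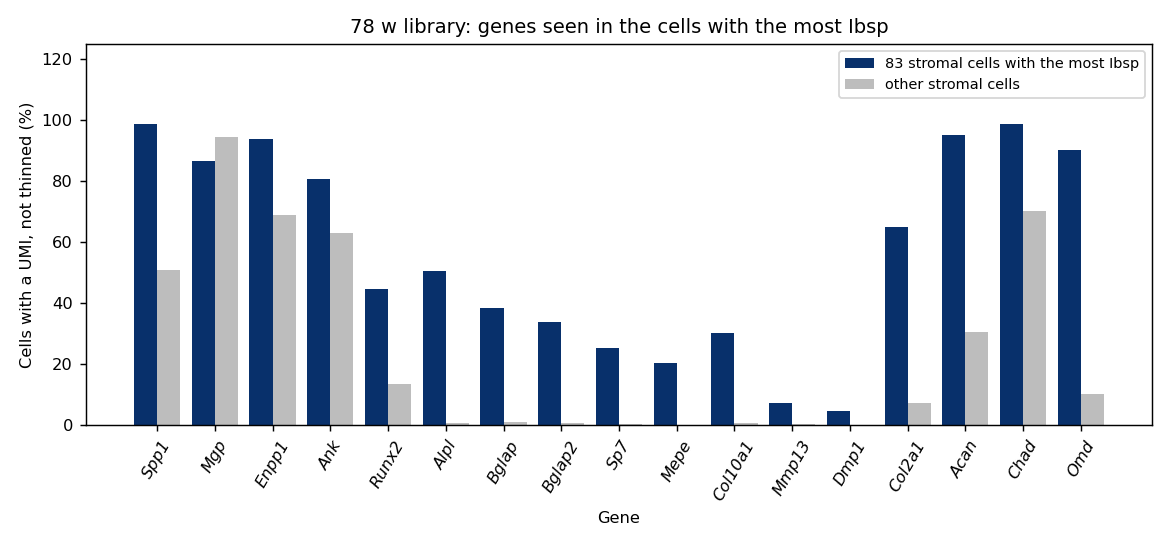
Share of cells with a UMI of 17 genes in the 78 w library, in the 83 stromal cells with the most Ibsp and in the other stromal cells, without thinning. The 83 cells are deeper (median 17782 against 9752 UMIs). Alpl, Bglap, Bglap2, Sp7, Mepe and Col10a1 are seen in 20.5% to 50.6% of them and in under 1% of the others, whereas Mgp is seen in most cells of both.

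Among the stromal clusters, Ibsp was highest in cluster 1 from 3 w on, with 88.2, 152 and 431 CPM at 3 w, 16 w and 78 w. In cluster 2 it was 30.8, 69.3 and 214 CPM, and in cluster 3 18.2, 14.2 and 6.04 CPM. The ratio of 78 w to 16 w was thus 2.84 in cluster 1 and 3.08 in cluster 2, but 0.425 in cluster 3 (0.305 to 0.589). The cluster 3 levels at 16 w and 78 w lay below those of endothelial cells (24.5 and 37.3 CPM). They cannot be told from background, and nothing is read from their ratio. Spp1 was highest in cluster 2 in each library, with 1651, 1215 and 1997 CPM at these ages. In cluster 1 it went from 722 CPM at 3 w to 230 at 16 w and 1660 at 78 w. Mgp was highest in cluster 1 (1018, 4427, 3781, 6887 and 4453 CPM), and so were Enpp1 and Ank in each library.

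The share of cluster 1 differs between 3 d and the later ages, so ratios within clusters stand beside the pooled ones. From 3 d to 78 w, Spp1 was 126-fold higher in cluster 1, 92.0-fold in cluster 2 and 22.5-fold in cluster 3. Mgp was 6.76-fold, 1.56-fold and 1.76-fold higher, where the pooled ratio was 6.45. Ank was 4.31-fold, 3.33-fold and 3.82-fold higher, against 6.07 pooled. Enpp1, at 1.96 pooled, was 1.30, 1.37 and 0.899 within clusters. With equal weight for each cluster the ratios of Mgp and Ank were 3.59 and 3.87, and those of Bglap and Bglap2 fell to 1.77 and 1.30, below the 2-fold limit.

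After injury Ibsp was lower than at 16 w in stromal clusters 1 and 2, at 0.139 and 0.218 of the 16 w level. The ratio in cluster 3 was 0.102, but the 16 w level of that cluster lay below the 24.5 CPM of endothelial cells. Nothing is read from it. Spp1 did not move in one direction, with 1.73 times the 16 w level in cluster 1, 0.496 in cluster 2 and 0.659 in cluster 3.

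**Figure D5:**
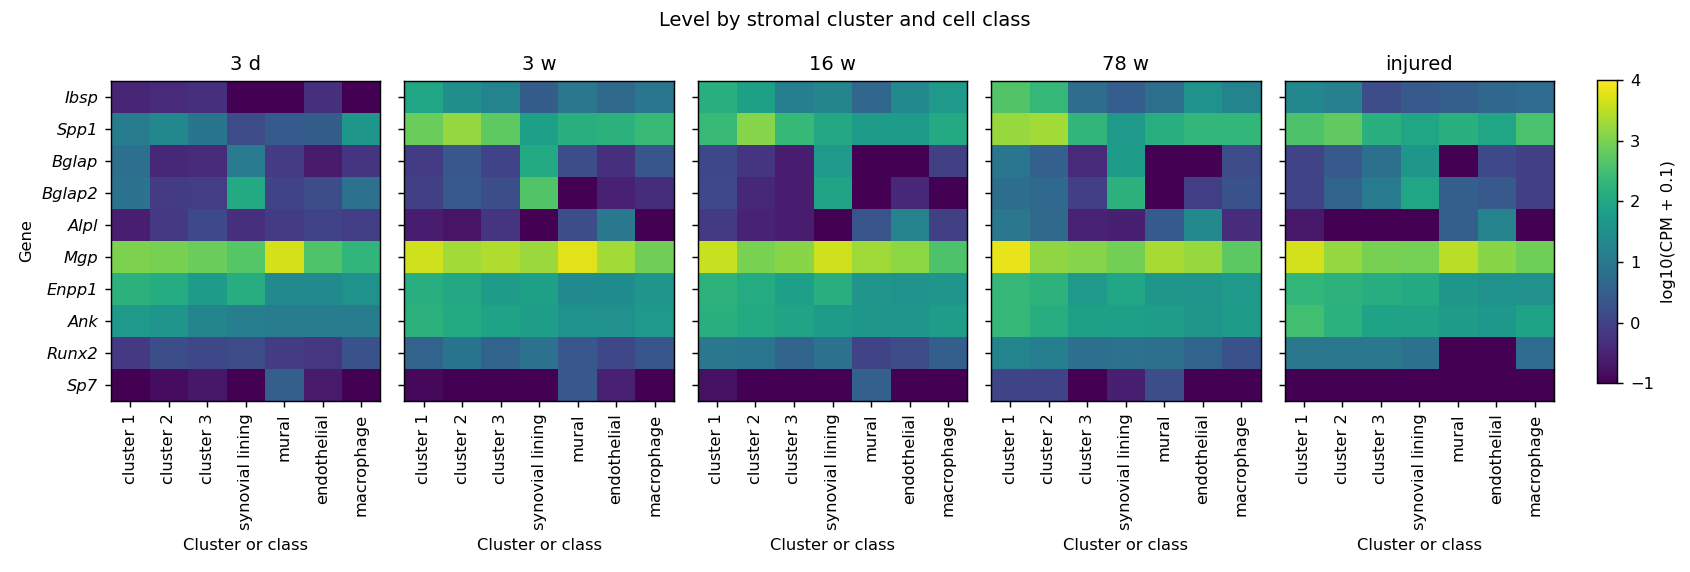
Level of the 10 genes, as log10 of CPM plus 0.1, in 3 stromal clusters and 4 other cell classes of each library. Bglap and Bglap2 are highest in synovial lining cells, Alpl is highest in endothelial cells from 3 w on, and Mgp is high in mural cells as well as in cluster 1.

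Outside the stroma, synovial lining, endothelial, mural and macrophage cells were compared with stromal cells. Bglap2, Bglap, Alpl, Mgp, Sp7, Spp1 and Enpp1 each passed their stromal level in at least 1 of these classes in at least 1 library, with the interval of the ratio above 1. For Enpp1 this was in synovial lining cells at 3 d, at 132 against 97.0 CPM, a ratio of 1.36 (1.25 to 1.47). Bglap2, Alpl and Mgp did so in more than 1 class. These included Bglap2 in macrophages at 3 d (4.55 times), Alpl in mural cells at 3 w (8.65 times on 4 UMIs) and Mgp in lining cells at 16 w (1.42 times). Runx2 reached 1.49 times its stromal level in lining cells at 3 w, on 10 UMIs and with an interval from 0.711 to 2.76. The unnamed clusters were not part of this comparison. Ibsp was above its stromal level in cluster 5 at 78 w, on 136 UMIs, and in cluster 10 of the injured library, on 41 UMIs. Bglap2 was 116, 438, 83.7, 161 and 90.2 CPM in synovial lining-like cells, which is 73.9, 376, 90.7, 29.3 and 30.1 times its stromal level. Of all Bglap2 UMIs, 74.2%, 81.9%, 65.6%, 63.7% and 45.5% came from these cells. Bglap was 12.1, 114, 49.8, 54.2 and 45.1 CPM there. Alpl in lining cells was 0 to 2 UMIs in each library.

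The cells with at least 3 osteocalcin UMIs (Bglap and Bglap2 together) differed between stromal and lining cells at 78 w in some of the other genes they carried. The 46 stromal cells included 42 with Ibsp, 24 with Alpl, 22 with Runx2 and 9 with Sp7, and 1 with Tspan15 and 3 with Clic5. Tspan15 and Clic5 are on the marker list that named the lining cells, so their difference follows from the naming. The 93 lining cells included 92 with Tspan15 and 92 with Clic5, 6 with Ibsp, 10 with Runx2, 1 with Alpl and 1 with Sp7. Prg4, the lubricin gene and a leading gene of the lining cluster, did not separate them, being in 45 of the 46 and 93 of the 93. Nor did Mgp, in 39 of the 46 and 77 of the 93, or Col1a1, in 37 of the 46 and 85 of the 93. At 3 w 20 stromal cells reached 3 UMIs, 5 of them with Ibsp and 0 with Alpl, and at 16 w 5 did, all 5 with Ibsp and 2 with Alpl.

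In endothelial-like cells Alpl was 0.908, 10.1, 17.1, 22.7 and 16.8 CPM on 7, 55, 65, 91 and 14 UMIs. This was 59.6 times the stromal level at 3 w (34.8 to 106), 34.7 times at 16 w and 2.88 times at 78 w. Stromal reference genes (Dcn, Lum, Fmod, Comp) stood at 0.150 to 0.255 of their stromal level in these cells, and Ibsp and Spp1 at 0.0763 to 0.208 from 3 w on, save for Ibsp in the injured library (0.280 on 4 UMIs). At 3 d Spp1 stood at 0.197, but Ibsp at 1.17 (0.231 to 3.75), with 0.389 CPM on 3 UMIs. At 3 w, 16 w and in the injured library 70.5%, 59.6% and 73.7% of all Alpl UMIs were endothelial, and at 78 w 87.6% were stromal.

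In mural-like cells Mgp was 4825, 5887, 1972, 2179 and 3072 CPM, or 5.71 times the stromal level at 3 d, 1.57 times at 3 w, 0.650 at 16 w, 0.399 at 78 w and 0.928 in the injured library. Sp7 was counted there with 10 of its 18 UMIs at 3 d, 6 of 9 at 3 w and 7 of 11 at 16 w, and with 3 of 86 at 78 w, where 79 were stromal. Macrophage-like cells had Spp1 at 45.0 CPM at 3 d, 3.11 times the stromal level, and at 375 CPM in the injured library, 0.904 of it (0.822 to 0.991). The stromal reference genes were at 0.238 to 0.264 of their stromal level in the macrophages of the injured library. In the other 3 libraries macrophage Spp1 was at 0.134 to 0.269 of the stromal level.

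Genes whose counts went with Ibsp, Spp1 and Mgp from cell to cell were ranked by Pearson's r over stromal cells of the 3 w, 16 w, 78 w and injured libraries, averaged over the 4, among 9280 genes. For Ibsp they were Wif1 (mean r 0.278), Omd (0.267), Chad (0.263), Cd200 (0.252) and Cst3 (0.249). The r of Omd with Ibsp was 0.125 at 3 w, 0.338 at 16 w and 0.521 at 78 w. For Spp1 they were Cst3 (0.364), Olfml3 (0.258), Ptn (0.243), Ogn (0.225) and Chad (0.217), and for Mgp Clu (0.409), Cilp2 (0.404), Ndufa4l2 (0.383), Fxyd5 (0.380) and Sbsn (0.375). Among the 10 genes, Spp1 and Mgp had r of -0.25, -0.27, -0.19 and -0.069 in the 4 libraries, and Ibsp and Alpl 0.41 at 78 w and within 0.05 of 0 elsewhere. Enpp1 and Ank had r with Mgp of 0.129 to 0.282 and 0.166 to 0.270. The cells of a library share its depth and free RNA, and these values are descriptions.

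Other genes of the pathway, in lists chosen with results of these data known, were read by the same 2-fold rule in stromal cells between 78 w and 3 d, where 14.3% of all 12901 genes were higher and 21.0% lower. Of 8 genes tested among 10 listed for pyrophosphate and phosphate handling, 3 were higher and 1 lower. Nt5e, which makes adenosine from AMP outside the cell, was 587 CPM against 16.8 CPM (35.0-fold), the phosphate transporter Slc20a1 3.31-fold and Enpp2, which makes lysophosphatidic acid, 2.29-fold higher. Entpd1, which degrades extracellular ATP and ADP, was at 0.391 of its 3 d level. The list's median log2 ratio was 0.33. Phospho1, which frees phosphate in matrix vesicles, had too few counts, at 0 to 0.111 CPM.

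Of 9 osteoblast and osteocyte genes tested among 14 listed, 5 were higher and 3 lower, with a median log2 ratio of 1.00. Mepe, an osteocyte matrix protein, went from 0 UMIs at 3 d to 164 at 78 w, at least 60.6-fold higher against 3 counts at 3 d. Omd was 23.7-fold, Dlx3 3.06-fold and Dlx5 2.00-fold higher. Col1a1, the main bone and fibrous collagen, was at 0.0929 of its 3 d level, Sparc at 0.318 and Ifitm5 at 0.398. The 6 osteoblast markers Bglap3, Dmp1, Phex, Mepe, Ifitm5 and Smpd3 summed to 4.34, 3.38, 3.07, 4.91 and 1.48 CPM in stromal cells, with Mepe at 0 at 3 d and in the injured library.

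Of 7 hypertrophic and cartilage genes tested among 8 listed, 5 were higher (14.3% of all genes) and 0 lower (21.0%), with a median log2 ratio of 4.06 against -0.17 for all genes. Chad was 179-fold, Col10a1 80.6-fold on 654 and 9 UMIs, and Col2a1 16.6-fold higher, and Sox9 was 726 CPM against 186 CPM. The collagenase Mmp13 had 229 UMIs at 78 w and 1 UMI at 3 d, a ratio of 254 with an interval from 45.1 to 10072. Of 6 vitamin K cycle genes and other inhibitors tested among 8 listed, Tnfrsf11b (osteoprotegerin, the decoy receptor that restrains osteoclasts) was 112-fold higher and fibrillin-1 (Fbn1) at 0.149. Ggcx and Vkorc1, whose enzymes serve the carboxylation of Mgp, had ratios of 1.06 and 0.685, and the median log2 ratio was -0.29. Of 2 osteoclast genes tested among 7 listed, Ctsk was at 0.465 and Acp5 at 0.737, with a median log2 ratio of -0.77. Osteoclast markers summed to 3.48 to 17.8 CPM in stromal cells, most of it Acp5, and Calcr was at 0 at 3 w, 16 w and in the injured library.

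Against both 3 w and 16 w, the injured library had Col2a1 2-fold higher (7.13 and 3.03 times) and Omd 2-fold lower (0.234 and 0.118), alongside the lower Ibsp. Col10a1 was 0.417 CPM and Mepe 0 UMIs there.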

How the data were processed

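Discs were digested first with Pronase, then with Collagenase P. For each 10x library the authors deposited UMI counts of every gene in every barcode, not normalized. The submitters' processing notes name Cell Ranger 3.1 and the build mm10, and the file headers name Cell Ranger 4.0.0. The 5 libraries were grouped by the age and treatment in their labels. Per the labels the kit was v2.

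From the deposited counts, barcodes above 200 UMIs whose mitochondrial share did not pass 30% were clustered in Seurat 5.3.0 (R 4.3.3): 2000 variable features per library, anchors over 1992 features with the 10 genes left out, 30 dimensions, resolution 0.2. Marker lists named the clusters, and the map of clusters to classes was set after they were seen. Class names are therefore rebuilt. Clusters 5 (low in UMIs) and 10 were left unnamed. Cluster 10 had 7 of 7 stromal and 5 of 6 macrophage markers, at 2.74 times the median UMIs of a library. It held 8.06% of the Ibsp UMIs of the injured library. Whether its cells are doublets was not tested. Doublets were kept, since Scrublet (scanpy 1.11.5) marked 0 to 2 cells per library, which does not show that doublets were few.

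UMIs were summed per class and library and given as CPM, with exact Poisson intervals. Ratios of 2 counts have exact conditional intervals and shares Clopper-Pearson intervals (95%, scipy 1.17.1). PCR copies are removed by the UMIs, and all intervals cover counting error only. A count of 0 was taken as 3 counts for bounds. A gene was called at a ratio of at least 2 or at most 0.5, with at least 100 UMIs in the library with the higher CPM, and the same rule over all genes gave the background. This calling step was tested on simulated data. Named genes were the 10 themselves, the 5 genes most like Ibsp, Spp1 and Mgp over cells (by ln of 1 plus UMIs per 10000, at least 100 UMIs in each library), and list genes past the 2-fold rule between 78 w and 3 d or in the injured library against both 3 w and 16 w. The genes and lists were chosen with earlier results of these data known. Positions are from GENCODE M21 and promoters from RefSeq. A list gene past the 2-fold rule is not reported here.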

Additional observations from a re-analysis of the deposited data

Results flagged for a closer look

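Spp1 and Mgp differed in direction between cell classes in a same pair of libraries, a difference that was not tested, since each class is 1 library per condition. From 16 w to 78 w Spp1 was 3.72 times as high in stromal, 3.69 times in endothelial and 2.31 times in mural cells, but 0.468 of its level in synovial lining cells (102 CPM at 16 w, 47.9 CPM at 78 w). From 3 w to 16 w Mgp was 2.45 times as high in synovial lining cells, on 87 and 109 cells, but 0.484 in macrophages and 0.335 in mural cells. From 3 d to 78 w Mgp was 6.45 times as high in stromal, 4.16 times in endothelial and 2.81 times in macrophage cells, but 0.452 in mural cells (4825 CPM at 3 d, 2179 CPM at 78 w). Free RNA of the stroma is counted in every class, and its part in these ratios was not tested.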

How the results depend on the processing

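No paired analysis was possible because each condition is 1 library. Leaving out the doublets that Scrublet calls was not run, as the caller marked almost none; leaving out the highest doublet scores and leaving out the highest cell of each gene were chosen after seeing the data. All 220 ratios recomputed for called genes kept their direction, and 105 of 120 counts of called genes stayed within 1.5 times. Of 560 recomputed ratios and shares, however, 227 were classed as moved. With a minimum of 20 UMIs, the counts were 1 higher for 16 w against 3 w, 2 higher and 2 lower for injured against 16 w, 2 higher for injured against 3 w, and 1 lower for 3 w against 3 d. Over all retained cells they were 1 higher and 2 lower for injured against 16 w and 2 lower for 16 w against 3 w. Clustering without integration gave 1 higher for injured against 16 w and 2 lower for 16 w against 3 w. Equal weight per cluster gave 2 lower for 16 w against 3 w and 1 lower for 3 w against 3 d, and equal weight per cell gave 0 lower for 16 w against 3 w. TMM scaling (edgeR 4.0.16) moved the median log2 ratio of all genes from -0.17 to 0.04 for 78 w against 3 d and from -0.37 to -0.19 for injured against 3 w, and gave 1 higher and 1 lower for injured against 3 w. Over all retained cells and without integration, the Bglap ratio of 3 w to 3 d was 1.59 and 1.48 and the Bglap2 ratio of 16 w to 3 w 0.417 and 0.413, against 0.913 and 0.791. With equal weight per cell or per cluster the 78 w to 3 d ratio of Ibsp was 681 and 703. With equal weight per cluster the 78 w to 16 w ratio of Spp1 was 2.30. The cause was not tested, except that the lower minimum admits more genes. Under TMM the higher share of all called genes went from 40.4% to 51.6% for 78 w against 3 d, from 21.8% to 36.0% for injured against 3 w, and from 28.5% to 39.4% for injured against 16 w.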

Other observations

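Cluster 5, left unnamed because its cells have few UMIs (a median of 1045 at 78 w), had Ibsp at 793 CPM and Bglap at 111 CPM at 78 w, on 136 and 19 UMIs in 119 cells. Of these 119 cells, 4 had at least 3 osteocalcin UMIs, all 4 with Ibsp. Over the libraries the markers of cluster 5 were mixed, with 7 of 7 for skeletal muscle, 4 of 4 erythroid, 5 of 6 endothelial and 5 of 7 stromal. In the other 4 libraries Ibsp was counted there with 1 to 3 UMIs and Bglap with 0 or 1. At 3 d, the stromal cell with 71 Bglap and 68 Bglap2 UMIs had 0 UMIs of Ibsp, Spp1 and Alpl among 8250, whereas the stromal cell with the most Bglap at 78 w had 502 of Ibsp, 194 of Spp1 and 27 of Alpl among 15964.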
